A study of Mus musculus with 21 samples.

Results

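The smooth muscle contractile genes described here were Acta2, Tagln, Myh11, Cnn1, Myl9, Mylk, Smtn, Lmod1, Tpm2 and Synpo2, taken from the table of counts by the Ensembl identifiers that an annotation pairs with these symbols. These 10 genes were found among 55450 genes in the table, and all 10 had enough counts to be tested with the 17309 genes that were. RNA was sequenced from left ventricular tissue of 21 male mice of the 129S6/SvEv strain, 12 weeks old. Mice carried the Myh6+/R404Q allele (R403Q), a mutation of cardiac myosin heavy chain that models hypertrophic cardiomyopathy, or were wild-type (WT) littermates, and ate a control diet (CD) or the same chow with empagliflozin (EMPA), an SGLT2 inhibitor, at 0.15 mg per g of diet. The groups were WT-CD (n = 5), WT-EMPA (n = 5), R403Q-CD (n = 7) and R403Q-EMPA (n = 4). The study's methods give 2 weeks of treatment before sequencing, whereas the sample labels give 16 weeks. The mutant allele is expressed in cardiomyocytes, where Myh6 is active, so that the altered protein is made in another cell type than smooth muscle. No cage held mice of both diets, and diet and cage cannot be told apart.

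Smooth muscle cells line the coronary arteries and arterioles and contract when myosin slides along actin, a process switched on by phosphorylation of the regulatory light chain. Many of the genes for this apparatus are transcribed under serum response factor (Srf), which binds a DNA element called the CArG box and is joined at it by the coactivator myocardin (Myocd). In the left ventricle these transcripts come from a minority of cells, and Acta2 and Tagln are also made by activated fibroblasts.

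Totals ran from 23491535 to 43539684 counts per mouse, and a count of 3 was worth between 0.0621 and 0.127 CPM (counts scaled to a common library size), well under every level of the 10 genes. Library sizes were scaled by the trimmed mean of M values (TMM), and all levels are CPM on that scale. Summed cardiomyocyte markers lay between 66182 and 123598 CPM, and Myh11, the defining marker of smooth muscle, was at 44.3 CPM or more in every mouse, so that RNA of both cell types was present throughout. The library of R403Q-CD mouse 2 stood furthest apart, with the lowest cardiomyocyte sum, the highest sum of fibroblast markers (7488 CPM, against 2921 to 5014 CPM in the other 6 R403Q-CD mice) and an atrial marker sum of 11741 CPM. Most of that sum, 10996 CPM, was Nppa, a natriuretic peptide gene that hypertrophic ventricle also expresses, and the other atrial markers summed to 745 CPM, against 23 to 323 CPM in the other 20 mice. That of R403Q-CD mouse 5 stood apart too, with the next lowest cardiomyocyte sum (86591 CPM), the next highest Nppa (3826 CPM, with the other atrial markers at 105 CPM) and the highest sum of mesothelial and epicardial markers (69.6 CPM). The mutation is a base change, which counts per gene do not show, so the genotype could not be checked from them.

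The promoters of Acta2 and Myl9 are shown because, of the 8 members with a promoter window, only these held a CArG box or its near variant. RefSeq windows of 300 bases (GRCm38.p6, from 250 bases before to 50 bases after the RefSeq transcription start) were matched for 8 of the 10 members, all but Tagln and Myh11. Capitals mark CArG boxes, which read as CArG boxes on both strands. The Acta2 window lies at chr19:34255324-34255623 on the minus strand and the Myl9 window at chr2:156775214-156775513 on the plus strand.
Acta2: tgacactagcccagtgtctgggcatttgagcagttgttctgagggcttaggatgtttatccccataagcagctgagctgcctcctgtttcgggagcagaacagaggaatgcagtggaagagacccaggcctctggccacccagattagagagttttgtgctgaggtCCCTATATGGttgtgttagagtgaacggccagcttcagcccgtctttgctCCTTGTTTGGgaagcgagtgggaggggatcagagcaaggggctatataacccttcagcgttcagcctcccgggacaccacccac
Myl9: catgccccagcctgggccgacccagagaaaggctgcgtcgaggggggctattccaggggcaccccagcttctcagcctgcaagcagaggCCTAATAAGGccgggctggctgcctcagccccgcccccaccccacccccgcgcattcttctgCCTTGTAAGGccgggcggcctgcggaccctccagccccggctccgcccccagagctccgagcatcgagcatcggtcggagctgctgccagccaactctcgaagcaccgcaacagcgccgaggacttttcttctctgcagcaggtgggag
The Myl9 window held 1 canonical box, CCTAATAAGG, 161 bases before the start, and 1 box with a single C or G in its core of A and T bases, CCTTGTAAGG, 99 bases before it. The Acta2 window held no canonical box and 2 of the variant kind, CCCTATATGG at 84 bases and CCTTGTTTGG at 34 bases before the start. Of 32851 promoter windows of this length, 1.63% held a canonical box, 8.5% the variant and 9.98% either.

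Levels of the members could be ordered per length. Per kilobase of exon, Acta2, which codes for smooth muscle alpha-actin, was the highest over all 21 mice, at 105.0 ± 42.3 CPM per kb (SD). Myl9, the regulatory light chain, followed at 56.0 ± 35.2, then Smtn, an actin-binding protein of contractile smooth muscle, at 29.0 ± 4.51, and Tagln, the actin-binding protein transgelin (SM22-alpha), at 25.5 ± 19.6 CPM per kb. Synpo2, which bundles actin and is also found at the Z-discs of striated muscle, stood at 17.5 ± 2.7 CPM per kb and Myh11, the smooth muscle myosin heavy chain, at 12.0 ± 6.56 CPM per kb. Tpm2 (beta-tropomyosin) at 8.69 ± 4.5, Mylk (myosin light chain kinase) at 4.31 ± 0.843, Cnn1 (calponin, which binds actin and slows myosin) at 2.34 ± 2.49 and Lmod1 (leiomodin, which nucleates actin filaments) at 1.82 ± 0.923 CPM per kb made up the rest. Acta2 exceeded Myl9 by more than either SD, whereas every other pair of neighbours in this order differed by less than the larger of the pair's SDs. The order held in WT-CD and changed within other groups: Tagln exceeded Smtn in R403Q-CD (34.5 against 30.3 CPM per kb) and was below Synpo2 in WT-EMPA (17.5 against 18.5) and R403Q-EMPA (14 against 16.9), and Lmod1 exceeded Cnn1 in WT-EMPA (1.74 against 1.26). The spread between mice differed among members. The coefficient of variation over all mice was 15.4% for Synpo2, 15.6% for Smtn and 19.6% for Mylk, and 77.0% for Tagln and 106.0% for Cnn1.

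**Figure D1:**
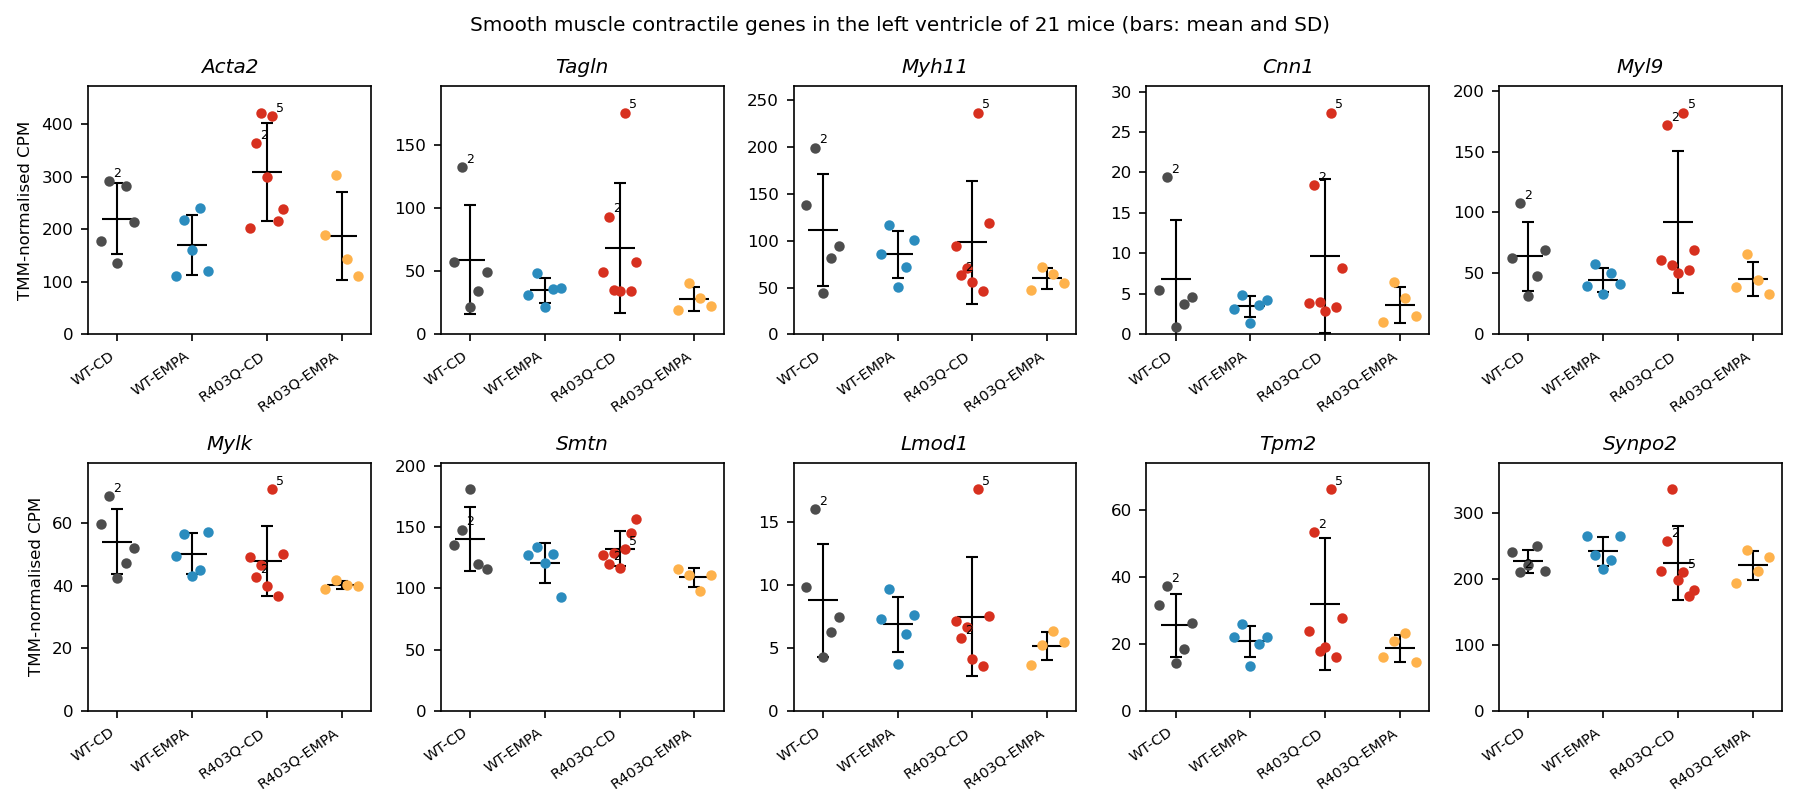
TMM-normalised CPM of each of the 10 genes (vertical axes, starting at 0) in each mouse, with groups on the horizontal axes; points are mice, horizontal marks and bars are means and SD, and the numbers 2 and 5 mark WT-CD mouse 2 and R403Q-CD mice 2 and 5. In Tagln, Cnn1, Myl9 and Tpm2 these mice sit above the rest of their groups, and in Smtn and Synpo2 they do not.

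The actin and myosin of the filaments came first in the comparison. Acta2 stood at 178, 292, 136, 282 and 213 CPM in the 5 WT-CD mice and at 110.2, 217, 161, 241 and 121 CPM in the 5 WT-EMPA mice. In R403Q-CD it ran from 203 to 422 CPM (median 299), and in the 4 R403Q-EMPA mice it was 189, 303, 144 and 111 CPM. R403Q-CD mice had the highest mean (308 ± 92.9 CPM, SD, n = 7), but its range overlapped that of every other group. Between R403Q-CD and WT-CD the log2 fold change of Acta2 was 0.48 ± 0.263 (SE, adjusted p = 0.297, edgeR's quasi-likelihood test with Benjamini-Hochberg adjustment), and between R403Q-EMPA and R403Q-CD it was -0.72 ± 0.286 (adjusted p = 0.278). Acta2 shares long stretches of coding sequence with the other actin genes, among them Actc1 of cardiomyocytes, and the authors counted uniquely aligned pairs, so its count is uncertain in those stretches.

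Myh11 was at 138, 199.6, 44.3, 81.4 and 94.2 CPM in WT-CD mice 1 to 5 and at 85.8, 117, 51.1, 72.1 and 101 CPM in WT-EMPA. Its R403Q-CD values ran from 46.5 to 237 CPM (median 71), and its R403Q-EMPA values were 47.7, 72.4, 64.7 and 54.4 CPM. The 4 R403Q-EMPA mice thus lay together at the low end, inside the ranges of the control diet groups. The fold change with EMPA was -0.71 ± 0.393 on the log2 scale in R403Q mice (adjusted p = 0.441) and -0.39 ± 0.385 in WT mice (adjusted p = 0.758, edgeR). Single mice moved these values: that in R403Q was -0.333 without R403Q-CD mouse 5, and that in WT was -0.0667 without WT-CD mouse 2 and -0.587 without WT-CD mouse 3, with the value nearer 0 also without WT-EMPA mouse 3.

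The light chain and its kinase differed in how far they varied. Myl9 stood at 62.9, 108, 31.4, 47.7 and 69.5 CPM in WT-CD and at 39.9, 57.8, 32.9, 50.7 and 41.2 CPM in WT-EMPA. In R403Q-CD it ran from 50.4 to 182 CPM (median 61.1), with mice 2 and 5 at 172 and 182 CPM and the other 5 at 69 CPM or less. In R403Q-EMPA it was 39, 65.6, 44.4 and 33.2 CPM, and only mouse 2 of that group reached the R403Q-CD range. Its log2 fold change with EMPA was -1.01 ± 0.373 in R403Q (adjusted p = 0.257) and -0.52 ± 0.364 in WT (adjusted p = 0.629, edgeR), where it was -0.249 without WT-CD mouse 2. Mylk was steadier. It was 39, 41.9, 40.1 and 39.9 CPM in the R403Q-EMPA mice and 49.4, 56.7, 43.1, 44.9 and 57.2 CPM in the WT-EMPA mice, 2 groups that did not overlap, as was so for 1 member of 10 and for 6.77% of all tested genes. In WT-CD it was 59.6, 68.7, 42.6, 47.2 and 52.2 CPM, and in R403Q-CD it ran from 36.8 to 70.9 CPM (median 46.5). Averaged over diets, Mylk was lower in R403Q than in WT by a log2 fold change of -0.25 ± 0.102, which missed the threshold (adjusted p = 0.113, edgeR). It passed without R403Q-CD mouse 5, the mouse with the most Mylk (adjusted p = 0.0263, with 8.09% of all genes called in that fit), and its adjusted p lay between 0.0263 and 0.253 over all alternatives.

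Among the actin-binding proteins, Tagln and Cnn1 carried the widest differences between mice. Tagln stood at 57.5, 133, 21.7, 34.7 and 49.6 CPM in WT-CD and at 31.1, 48.4, 21.7, 36.1 and 37.1 CPM in WT-EMPA. In R403Q-CD it ran from 34.2 to 176 CPM (median 49.6), and in R403Q-EMPA it was 19.5, 40.9, 28.8 and 22.3 CPM. All but 1 of the R403Q-EMPA values were below every R403Q-CD value. Cnn1 was 5.53, 19.4, 0.964, 3.76 and 4.61 CPM in WT-CD, 3.19, 4.83, 1.43, 3.62 and 4.18 CPM in WT-EMPA, and 1.53, 6.42, 4.43 and 2.21 CPM in R403Q-EMPA. In R403Q-CD it ran from 2.92 to 27.4 CPM (median 4.04). No EMPA mouse passed 6.42 CPM of Cnn1, while WT-CD mouse 2 and R403Q-CD mice 2 and 5 stood at 19.4, 18.4 and 27.4 CPM. On the opposite strand Tagln overlaps Pcsk7. The authors counted pairs on the same strand, but the library kit is not said to mark strand. Reads of these genes may therefore not be told apart where they overlap.

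Smtn, Lmod1, Tpm2 and Synpo2 completed the list. Smtn stood at 116, 111, 98 and 111 CPM in R403Q-EMPA, all below the R403Q-CD range of 117 to 157 CPM (median 129), though the nearest mice of these groups nearly touched. It was the 1 member of 10 whose R403Q-EMPA and R403Q-CD mice did not overlap, as was so for 1.62% of all tested genes. It was 135, 148, 181, 120.2 and 116 CPM in WT-CD and 127, 134, 121, 128 and 92.6 CPM in WT-EMPA. Over all mice Lmod1 ran from 3.58 to 17.6 CPM and Tpm2 from 13.3 to 66.3 CPM, both with their highest value in R403Q-CD mouse 5. Synpo2 ran from 174 to 337 CPM, and its group means lay between 221 and 242 CPM with SDs of 17.5 to 56.2 CPM.

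None of the 10 members passed an adjusted p under 0.05 in any of the 7 contrasts by edgeR. Between R403Q-CD and WT-CD, where 1.44% of all tested genes were called, 0 members were, and 0 had an unadjusted p under 0.05, beside 20.9% of all genes. With cage as a block that contrast called 1128 genes in place of 250, and 0 members. In that contrast 5 members were higher and 5 lower, where 47.5% of all genes were lower, with log2 fold changes from -0.24 (Lmod1) to 0.53 (Myl9) and a median of 0.10, beside 0.01 over all genes. That median was 0.32 without WT-CD mouse 2 and -0.04 without R403Q-CD mouse 5. Leaving out 1 mouse, Myl9 ran from 0.278 to 0.798 and Cnn1 from 0.000499 to 1.39. Between R403Q-EMPA and WT-EMPA (0.0578% of all genes called) 0 members were called and 1, Mylk, had an unadjusted p under 0.05 on the lower side, as did 6.56% of all genes. Averaged over diets, the genotype contrast called 10.9% of all genes and 0 members, and Mylk again was the 1 member with an unadjusted p under 0.05, on the lower side with 13.0% of all genes. With cage as a block these contrasts called 0 genes in place of 10 and 944 in place of 1883, and 0 members in both. DESeq2's Wald test also called 0 members in these genotype contrasts, beside 5.59%, 1.78% and 16.0% of all genes in the order given. On the control diet 0 members had groups that did not overlap, beside 2.12% of all genes.

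With EMPA, estimates for most members were below 0 within each genotype, and edgeR and DESeq2 called none of them there. In R403Q mice all 10 members had a negative log2 fold change, where 50.8% of all tested genes did, with a median of -0.72 beside -0.00359 over all genes. Without R403Q-CD mouse 5 the median was -0.42, and the estimate of Cnn1 was -0.903. In this contrast edgeR called 0.0116% of all genes and 0 members, DESeq2 called 0.937% of all genes and 0 members, and 5 members (Acta2, Myl9, Smtn, Tagln and Tpm2) had an unadjusted p under 0.05, as did 6.36% of all genes on the lower side. The estimates ran from -0.03 ± 0.132 (SE) for Synpo2 to -1.40 ± 0.691 for Cnn1, and the smallest adjusted p was 0.251, for Tagln (-1.30 ± 0.471). In WT mice 9 of 10 members were negative, beside 50.9% of all genes, with a median of -0.36. Without WT-CD mouse 2 the median was -0.12 and Cnn1 went from -0.996 to -0.106, and without WT-EMPA mouse 3 the median was -0.23. There edgeR called 0.0289% and DESeq2 0.737% of all genes, both called 0 members, and 0 members had an unadjusted p under 0.05, beside 11.0% of all genes. The WT-EMPA and WT-CD mice overlapped for all 10 members, whereas they did not for 3.45% of all genes. The members move together between mice, as described further on, so that these shared signs are not separate pieces of evidence. Fewer smooth muscle cells, less RNA per cell and a different share of other cells or tissue in the sample cannot be told apart in tissue RNA. Diet and cage cannot be told apart either.

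The test of the difference between genotypes gave no call. The interaction of genotype and diet called 0 members and 0.0% of all genes by edgeR, 0 members by DESeq2, and 0 members at an unadjusted p under 0.05, beside 3.28% of all genes. All 10 members had a more negative estimate in R403Q than in WT, as did 50.2% of all genes, from -0.06 ± 0.16 for Smtn to -0.53 ± 0.639 for Tagln, each smaller than its SE, and each adjusted p was 0.999. Without R403Q-CD mouse 5 only 7 of 10 were negative, with a median of -0.09 in place of -0.34, and without WT-CD mouse 2 the median was -0.58. Leaving out 1 mouse, Tagln ran from -1.07 (without WT-CD mouse 2) to -0.107 (without R403Q-CD mouse 5) and Smtn from -0.173 (without WT-CD mouse 3) to -0.00319 (without WT-CD mouse 5). The diet contrasts in R403Q and in WT share no mice, whereas the R403Q-CD mice enter both the genotype contrast on the control diet and the diet contrast in R403Q.

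Averaged over genotypes, the diet contrast gave most members their smallest p-value, though not Mylk, Tpm2 or Synpo2. Tagln was lower with EMPA by a log2 fold change of -1.03 ± 0.326 (adjusted p = 0.0831, edgeR) and Smtn by -0.25 ± 0.0801 (adjusted p = 0.0863). Myl9 at -0.77 ± 0.26 (adjusted p = 0.104), Acta2 at -0.55 ± 0.2 (adjusted p = 0.13), Cnn1 at -1.20 ± 0.481 (adjusted p = 0.163) and Tpm2 at -0.54 ± 0.244 (adjusted p = 0.219) had unadjusted p-values under 0.05. Myh11 (-0.55), Lmod1 (-0.44), Mylk (-0.18) and Synpo2 (0.03) did not. Without WT-CD mouse 2 Cnn1 was at -0.753, and without R403Q-CD mouse 5 Myh11 was at -0.358 and Lmod1 at -0.263, the last nearer 0 also without WT-CD mouse 2. In this contrast 9 of 10 members were negative, beside 52.4% of all genes, edgeR called 0 of 10 members beside 2.91% of all genes, and 6 members were lower at an unadjusted p under 0.05 beside 9.41% of all genes. DESeq2 called 2 members, Tagln (adjusted p = 0.0476) and Smtn (adjusted p = 0.0446), beside 5.88% of all genes. Over all alternatives the adjusted p lay between 0.0476 and 0.221 for Tagln and between 0.0446 and 0.183 for Smtn.

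**Figure D2:**
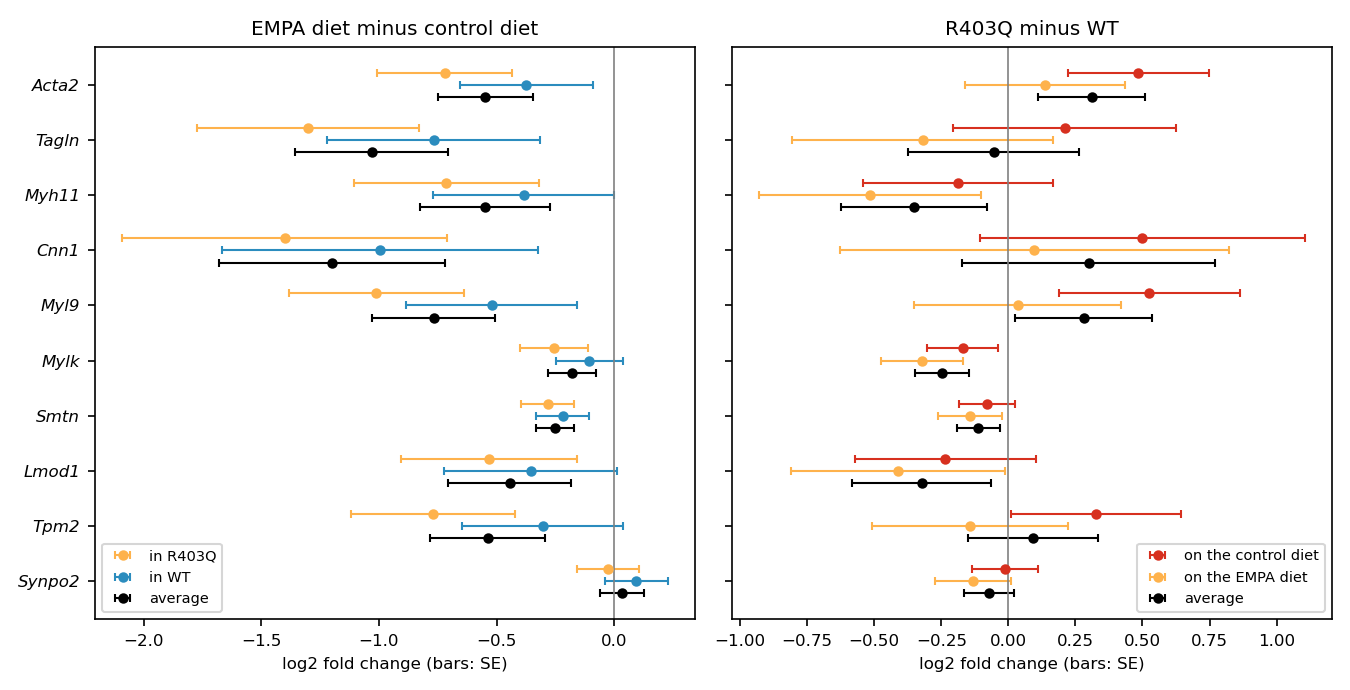
Log2 fold changes (horizontal axes) of the 10 genes with SE bars from edgeR, for EMPA against control diet on the left and R403Q against WT on the right; colours give the contrast within each genotype or diet and black the average. On the left 9 of the 10 averages lie below 0, from -0.18 for Mylk to -1.20 for Cnn1, with Synpo2 at 0.03; on the right they fall on both sides of 0.

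The diet difference was smaller without a few mice of the control diet. WT-CD mouse 2 and R403Q-CD mice 2 and 5 had the most Cnn1, and without these 3 mice, a choice made after the data were seen, the averaged log2 fold change with EMPA was -0.42 for Tagln, -0.19 for Cnn1, -0.30 for Myl9 and -0.41 for Acta2, while Smtn stayed at -0.26. The median of the members was then -0.21 in place of -0.54, and 0 were called, beside 2.76% of all genes in that fit. Leaving out high mice of the control diet lowers that group by construction. Without them Mylk was called lower in R403Q in the average over diets (-0.25, adjusted p = 0.0412, edgeR), with 9.09% of all genes called in that contrast.

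Markers of other cells differed in the same mice. In R403Q-CD mice 2 and 5 and in WT-CD mouse 2, summed markers of large vessels and valves were 321, 269 and 293 CPM, whereas the medians of the groups lay between 125 and 147.5 CPM. Activated fibroblast markers summed to 1913, 695 and 393 CPM in these mice, with group medians of 153 to 230 CPM, and cardiomyocyte markers to 66182, 86591 and 106833 CPM. In the averaged diet contrast, activated fibroblast markers were lower with EMPA in 10 of 11 (median log2 fold change -1.08, 0 called) and large vessel and valve markers in 6 of 8 (median -0.83, 1 called), where 52.4% of all genes were lower, 0.936% were called lower and 1.98% called higher. The called gene was Mfap4, a microfibril-associated protein of elastic tissue, at -1.46 ± 0.385 (adjusted p = 0.0434, edgeR). Vascular smooth muscle and pericyte markers were lower in 14 of 16 (median -0.22, 0 called). The most abundant of them, Abcc9, a potassium channel subunit that cardiomyocytes also make, had a positive estimate (0.24 ± 0.141, adjusted p = 0.355, edgeR), and the median summed level of the list was 848 CPM in WT-CD and 940.3 in WT-EMPA, and 687 in R403Q-CD and 795 in R403Q-EMPA. Atrial markers were lower with EMPA in 6 of 6 (median -1.94, 0 called), and blood markers were higher in 5 of 5 (median 0.64, 4 called). Mesothelial and epicardial markers differed in sign by genotype, with higher estimates in 6 of 6 in WT (median 0.63) and lower ones in 5 of 6 in R403Q (median -1.79), and edgeR called 0 in either genotype or in the interaction, where 3 of 6 had an unadjusted p under 0.05, beside 3.28% of all genes. Of all genes 50.9% were lower with EMPA in WT and 50.8% in R403Q. Over the 21 mice, after subtraction of group means, the mean of the members' log2 levels was correlated with each summed list of cell markers. Pearson's r ran from -0.388 (cardiomyocyte) to 0.77 (large vessel and valve, 0.641 without the 2 mice farthest from the median). It was 0.671 for activated fibroblast markers and -0.0569 for vascular smooth muscle and pericyte markers. The part of these cells in the values of the members was not tested.

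Within groups, 7 of the 10 members varied together and 3 did so less or not at all. Over the 21 mice, after subtraction of the group means from log2 CPM, the 21 pairs among Tagln, Myh11, Cnn1, Myl9, Mylk, Lmod1 and Tpm2 had Pearson's r between 0.668 and 0.97 (median 0.865) and Spearman's rho between 0.623 and 0.965. Without the 2 mice farthest from the median, r among these 7 genes ran from 0.5 to 0.956. The 7 genes were grouped after their values were seen, and the points share libraries and scaling, so the correlations are a description. Acta2 followed them loosely, with r from 0.275 to 0.598, and Smtn (-0.206 to -0.0886) and Synpo2 (0.022 to 0.167) hardly at all.

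**Figure D3:**
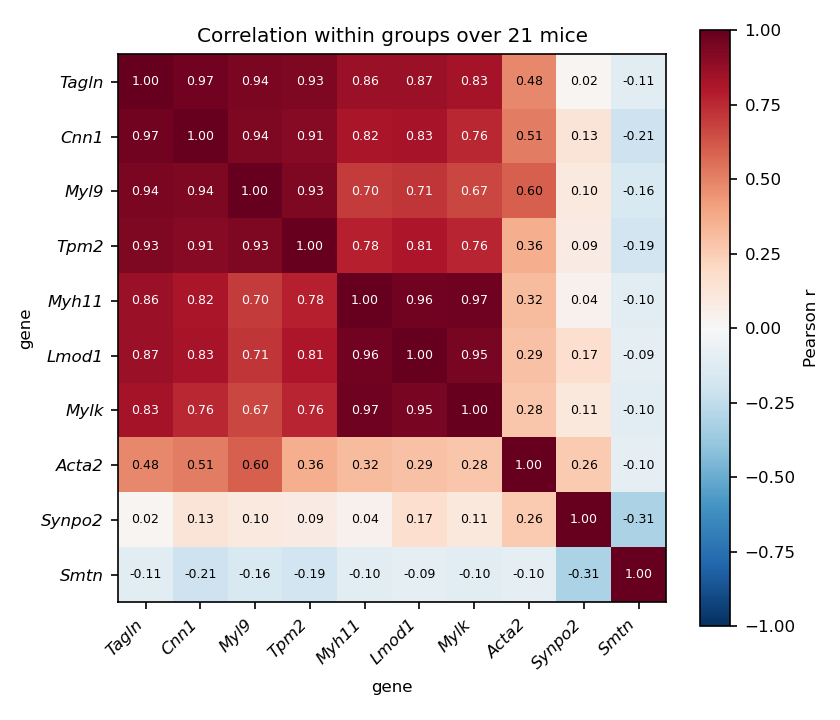
Pearson's r for each pair of the 10 genes over 21 mice, computed on log2 CPM after subtraction of group means; red is positive and blue negative. A block of 7 genes has r between 0.668 and 0.97, Acta2 is paler, and Smtn and Synpo2 stand near 0.

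Inside the block of 7 there were closer sets. Myh11 went with Mylk (r = 0.97) and with Lmod1 (r = 0.964), and Tagln with Cnn1 (r = 0.966), Myl9 (r = 0.945) and Tpm2 (r = 0.932), while Myh11 and Myl9 gave r = 0.697. R403Q-CD mouse 2 shows the difference. There Myl9 stood at 172 CPM against 63.4 CPM of Myh11, a ratio of 2.71, where the ratio was 0.407 to 1.14 in every other mouse. Its Tagln was 1.47 times its Myh11, against ratios of 0.362 to 0.746 elsewhere, and its Cnn1 was 3.18 times its Lmod1, against 0.224 to 1.56. In R403Q-CD mouse 5 and WT-CD mouse 2, by contrast, Myh11, Lmod1 and Mylk were the highest of their groups along with Tagln, Cnn1, Myl9 and Tpm2.

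**Figure D4:**
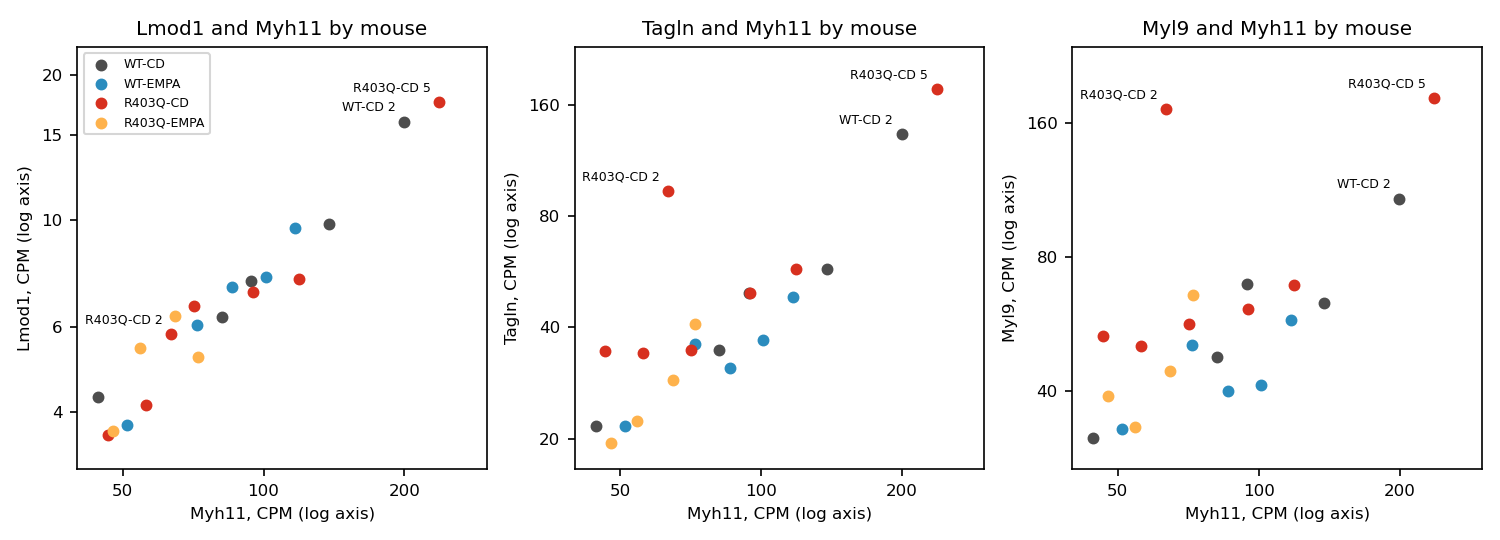
Lmod1, Tagln and Myl9 (vertical log axes, CPM) against Myh11 (horizontal log axis, CPM), with a point for each of the 21 mice coloured by group. R403Q-CD mouse 2 lies with the other mice for Lmod1 and above them for Tagln and Myl9, while R403Q-CD mouse 5 and WT-CD mouse 2 are at the upper right in all panels.

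Beyond the 10 members, the genes whose level followed the members' mean most closely within groups were Kcnmb1 (r = 0.954), the beta subunit of the calcium-activated potassium channel of smooth muscle, and Flna (r = 0.951), the actin cross-linker filamin A. They were followed by Csrp1 (0.881), Actg2 (0.879), the gamma-actin of enteric smooth muscle, Col18a1 (0.859), Actn1 (0.854), Npy1r (0.85), Susd5 (0.843), Ism1 (0.838) and Mertk (0.837), all over 21 mice. Of 17309 tested genes, 150 had an r above 0.7 and 19 an r below -0.7, with a median of -0.0136. These counts include the 10 members, which themselves enter the mean. None of these 10 genes passed the threshold in the averaged diet contrast: Kcnmb1 had -0.64 (adjusted p = 0.101), Csrp1 -0.39 (adjusted p = 0.0981) and Actg2 -1.03 (adjusted p = 0.167, edgeR). Kcnmb1 stood at 2.55 ± 0.988 CPM in WT-CD, 1.84 ± 0.5 in WT-EMPA, 2.62 ± 1.1 in R403Q-CD and 1.49 ± 0.391 in R403Q-EMPA (SD).

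Of the regulators of this program, some were called with genotype and 1 with diet. Of 18 transcription regulators of smooth muscle, averaged over diets, 3 were called lower and 0 higher in R403Q, beside 4.58% and 6.3% of all genes, and the 3 were Myocd, Tead1 and Gata6. Myocd stood at 65.4 ± 7.92 CPM in WT-CD, 65.8 ± 4.74 in WT-EMPA, 52.0 ± 10.1 in R403Q-CD and 54.6 ± 3.87 in R403Q-EMPA, a log2 fold change of -0.30 ± 0.0846 (adjusted p = 0.0284, edgeR). Cardiomyocytes also express Myocd, and cardiomyocyte markers were lower in R403Q in 8 of 10, with 3 called, again beside 4.58% of all genes. In the same contrast macrophage markers were called higher in 7 of 7, fibroblast markers were higher in 11 of 11 with 4 called, and activated fibroblast markers in 11 of 11 with 3 called (median 1.11), beside 6.3% of all genes. Tead1, a partner of the YAP coactivators, fell by 0.32 ± 0.0812 on the log2 scale (adjusted p = 0.017) and Gata6, a zinc finger factor of heart and vessel, by 0.17 ± 0.0533 (adjusted p = 0.0493). Within groups none of Myocd, Tead1 and Gata6 followed the members (r = -0.21, -0.0817 and -0.11). Srf, named for its role with its values known, differed by -0.09 ± 0.0611 with genotype and 0.11 ± 0.061 with diet (adjusted p = 0.35 and 0.328). With EMPA 1 regulator was called lower, beside 0.936% of all genes, and this was Csrp2, a LIM domain partner of Srf, which was 28.7 ± 11.9 and 32.2 ± 16.7 CPM in WT-CD and R403Q-CD and 17.5 ± 3.93 and 17.1 ± 4.61 CPM in WT-EMPA and R403Q-EMPA. Its averaged log2 fold change was -0.81 ± 0.221 (adjusted p = 0.0482, edgeR). Within groups Csrp2 followed the members' mean, with r = 0.767, and r = 0.557 without the 2 mice farthest from the median.

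Other genes of the smooth muscle cytoskeleton split by contrast. Of 24 tested, 1 was called higher and 3 lower in R403Q averaged over diets, where 6.3% of all genes were called higher and 4.58% lower. Pdlim3, a Z-disc protein, rose (0.27 ± 0.0847), and Vcl (vinculin, -0.25 ± 0.0592) and Tns1 (tensin, -0.40 ± 0.1), both at adhesions between cytoskeleton and membrane, were among those that fell. Cardiomyocytes make both, and in this contrast cardiomyocyte markers were lower in 8 of 10 with 3 called, as given above. Tns1, at a mean of 1661 CPM, did not follow the members within groups (r = 0.114). With EMPA, averaged over genotypes, 20 of 24 had a negative estimate (median -0.15), beside 52.4% of all genes, and 1 was called, beside 0.936% called lower of all genes. It was Cnn3, the widely expressed calponin, at -0.32 ± 0.0757 (adjusted p = 0.0272, edgeR). Cnn3 stood at 69.3 ± 7.55 and 75.8 ± 12.2 CPM in WT-CD and R403Q-CD against 55.7 ± 4.74 and 60.2 ± 5.27 CPM in WT-EMPA and R403Q-EMPA (SD).

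Genes that signal to the contractile apparatus were called in both directions with EMPA, 4 higher and 1 lower of 24, where 1.98% and 0.936% of all genes were. Ppp1r14a (CPI-17, an inhibitor of myosin light chain phosphatase) fell by 0.49 ± 0.129 on the log2 scale (adjusted p = 0.044, edgeR), from 5.29 ± 0.772 and 5.42 ± 1.42 CPM in WT-CD and R403Q-CD to 3.71 ± 0.536 and 3.94 ± 0.573 CPM in the EMPA groups. Ppp1r12b, a targeting subunit of that phosphatase, rose (0.26 ± 0.07, adjusted p = 0.0462), as did Arhgef12, an activator of RhoA (0.20 ± 0.0547, adjusted p = 0.0469). Adra1b, an alpha-1 adrenergic receptor (0.55 ± 0.101, adjusted p = 0.00938), and Pde3a, which degrades cyclic AMP (0.44 ± 0.0906, adjusted p = 0.0149), also rose, and both are expressed in cardiomyocytes too. Within groups, r with the members' mean was 0.45 for Arhgef12, 0.32 for Ppp1r14a, 0.0948 for Ppp1r12b, -0.268 for Pde3a and -0.514 for Adra1b. Without the 2 mice farthest from the median, Adra1b was at -0.0743 and Ppp1r14a at 0.0543. Averaged over diets, 2 of the 24 were called lower in R403Q, beside 4.58% of all genes, the angiotensin receptor Agtr1a (-0.34 ± 0.0847, adjusted p = 0.0164) and the calcium channel Cacna1c (-0.33 ± 0.108, adjusted p = 0.05 once rounded). Cacna1c is also the L-type channel of cardiomyocytes, whose markers were lower in 8 of 10 in the same contrast, with 3 called.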

How the data were processed

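RNA of frozen left ventricles of 21 mice was sequenced by the authors as poly(A)-selected read pairs, which they aligned to mm10 with STAR 2.6.0c. The deposited counts were made by the authors with featureCounts (Subread 1.6.2) and Ensembl annotation for nonmitochondrial genes, from uniquely aligned proper pairs on the same strand. A deposited table of transformed values was not used. Each mouse gave 1 library, and total counts ran from 23491535 to 43539684.

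A GENCODE annotation (GRCm38) paired 55190 of the 55450 identifiers with symbols and gave positions and exon lengths. In R 4.3.3, edgeR 4.0.16 kept genes by filterByExpr with a minimum count of 10 (17309 genes), scaled by TMM and tested all 4 groups in 1 quasi-likelihood fit, and genes were called at 0.05 after Benjamini-Hochberg adjustment. The procedure was tested on simulated data. For correlations, CPM were taken to log2 after addition of a prior count of 2. As alternatives, the study's own choice, DESeq2 (here 1.42.0, Wald test), was run beside no filter on low counts, library size alone, only the groups compared, cage as a replicate block, and leaving out each mouse in turn. An alternative without 3 mice was added after the data were seen. The alternatives were read for counts of all genes and for the members, so calls of genes in the other lists were not rechecked.

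The 10 members and the other gene lists were chosen with earlier results of these data known. Named genes were the members, the 3 genes of highest mean CPM and every called gene of each other list, and the 10 genes most correlated with the members' mean. Some genes that meet this rule are given only in counts or are not reported here. Mice of a cage were paired by the label: cages with both genotypes had correlations of deviations from the group means of 0.0226 to 0.338 in 6 cages. The blocked fit, made for the genotype contrasts and the interaction, called 0 members. The fits without a block treated mice as independent. Their p-values set a difference against the spread between mice within groups, and those of the diet contrasts made no allowance for cage.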

Additional observations from a re-analysis of the deposited data

Results flagged for a closer look

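Values far from the rest of their group by Dixon's test were found in 5 of 40 groups of members. Chance alone marks about 1 group in 20. The members move together and share mice, so these 40 groups are not separate tests. In R403Q-CD the highest mouse, mouse 5, stood apart for Tagln (176 CPM, nearest 93.5), Myh11 (237 CPM, nearest 119), Mylk (70.9 CPM, nearest 50.3) and Lmod1 (17.6 CPM, nearest 7.55). In WT-CD mouse 2 stood apart for Cnn1 (19.4 CPM, nearest 5.53).

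Sums of marker lists stood apart in 5 of 52 groups. In R403Q-CD these were activated fibroblast and myofibroblast markers (1913 CPM, nearest 695), atrial markers (11741 CPM, nearest 3931, of which Nppa made up 10996 and 3826 CPM) and macrophage markers (777 CPM, nearest 555), each highest in mouse 2, and mesothelial and epicardial markers (69.6 CPM, nearest 32.6), highest in mouse 5. In WT-CD mesothelial and epicardial markers reached 25.6 CPM in 1 mouse (nearest 10.2).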

How the results depend on the processing

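Each of 1830 recomputed fold changes of members was compared with the value reported: 1784 kept their direction and side of the threshold, 4 passed the threshold under the alternative and 42 changed sign. The 4 were Tagln and Smtn under DESeq2 in the averaged diet contrast, and Mylk with genotype averaged over diets without R403Q-CD mouse 5 and without the 3 mice with the most Cnn1. The cause of each change was not tested.

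For all genes, DESeq2 called 971 genes between R403Q-CD and WT-CD, 145 between R403Q-EMPA and R403Q-CD, 114 between WT-EMPA and WT-CD, 297 between R403Q-EMPA and WT-EMPA and 984 in the averaged diet contrast, where it called 2 members; edgeR's counts were 250, 2, 5, 10 and 504. Without the filter on low counts the averaged diet contrast called 314. With library size alone R403Q-EMPA against R403Q-CD called 5 and WT-EMPA against WT-CD 0, Synpo2 between R403Q-CD and WT-CD was 0.054 and Tagln with genotype averaged over diets 0.0109. With only the groups compared, the counts were 28 for R403Q-CD against WT-CD, 0 for R403Q-EMPA against R403Q-CD and 123 for R403Q-EMPA against WT-EMPA. With cage as a replicate block they were 1128 for R403Q-CD against WT-CD, 0 for R403Q-EMPA against WT-EMPA and 944 for genotype averaged over diets; Synpo2 was then 0.0093 in the first, Cnn1 -0.0779 and Myl9 -0.0183 in the second and Smtn 0.0306 in the interaction. The block changed no call of a member in the 3 genotype contrasts and the interaction; it could not be fitted for the 3 diet contrasts, since no cage held both diets. Without the 3 mice with the most Cnn1, chosen after the data were seen, 64, 1, 11 and 284 genes were called in the pairwise contrasts in the order above, 1 member with genotype averaged over diets, and Tpm2 was -0.113 between R403Q-CD and WT-CD and -0.129 with genotype averaged over diets.

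Leaving out each mouse in turn, the counts of all genes ran from 31 (without WT-CD mouse 3) to 1045 (without R403Q-CD mouse 3) for R403Q-CD against WT-CD, 0 to 12 (without R403Q-CD mouse 1) for R403Q-EMPA against R403Q-CD, 0 to 12 (without R403Q-CD mouse 2) for WT-EMPA against WT-CD, 1 (without R403Q-EMPA mouse 1) to 201 (without R403Q-CD mouse 2) for R403Q-EMPA against WT-EMPA, 961 (without R403Q-EMPA mouse 1) to 2764 for genotype and 122 (without R403Q-EMPA mouse 3) to 929 (without R403Q-CD mouse 3) for diet; members ran from 0 to 1 for genotype averaged over diets and were 0 in the other 6 contrasts. Between R403Q-CD and WT-CD, log2 fold changes ran from -0.22 to 0.75 for Tagln, -0.57 to 0.13 for Myh11, -0.141 to 0.0292 for Smtn, -0.60 to 0.10 for Lmod1 and -0.138 to 0.0409 for Synpo2. Between R403Q-EMPA and WT-EMPA they ran from -0.20 to 0.32 for Acta2, -0.32 to 0.35 for Cnn1 and -0.19 to 0.16 for Myl9, and between R403Q-EMPA and R403Q-CD from -0.08 to 0.10 for Synpo2. In the interaction they ran from -0.646 to 0.0502 for Myh11, -1.29 to 0.0898 for Cnn1, -0.51 to 0.18 for Lmod1 and -0.17 to 0.00406 for Synpo2, and with genotype averaged over diets from -0.27 to 0.21 for Tagln and -0.0488 to 0.182 for Tpm2.

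Groups held 4 to 7 mice, the diet groups were housed in separate cages, and RNA came from whole tissue. For the members with the widest spread between mice, Cnn1 and Tagln, the SE of a pairwise log2 fold change was between 0.416 and 0.726.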
